A study of Mus musculus with 6 samples.

Results

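The comparison described here is that of muscle satellite cells taken straight from the tissue with and without the Yy1 alteration, 1 RNA-seq library on each side. Its members are all gene symbols that reached at least 1 FPKM (a level in sequenced fragments, already divided by transcript length and library size) in either library. They number 11229 of the 24205 symbols listed for this pair. The ratio used throughout is the log2 of iKO over WT after 1 FPKM was added to each value, so a positive ratio means a higher level in the iKO library.

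The labels name the groups only as WT and as iKO for Yy1, both of freshly isolated satellite cells. Polyadenylated RNA was read with paired-end Illumina sequencing, and the same medium with fetal bovine serum and antibiotics is described for all samples of the series. The allele, the way the gene was inactivated, the age and the sex of the animals, and the number of animals pooled, have no entry in the labels used here, nor has the strain of the RNA libraries. The other 4 samples of the 6 in the series are a WT and an iKO library of cells cultured for 36 h (activated satellite cells) and a YY1 immunoprecipitation with its input, also from cultured cells and titled C57. With 1 library a side there is no replicate error, so each difference below compares 2 libraries, without a p-value.

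Satellite cells are the stem cells of skeletal muscle, which lie between the muscle fibre and its basement membrane and are marked by the transcription factor Pax7. They are quiescent in resting muscle and enter the cell cycle after injury, and taking them out of the tissue itself switches on stress and early response genes. YY1 is a zinc finger transcription factor of nearly all cells that can activate or repress the genes it binds, and its partners include the INO80 remodelling complex and Polycomb proteins. Several of the genes that differ below are targets of NF-kappaB, a family of transcription factors that is held in the cytoplasm by inhibitors and freed by signals from interleukin-1, tumour necrosis factor or toll-like receptors.

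The targeted gene was lower but still present in the iKO library. Yy1 (chromosome 12, 110031521 to 110054842, mm9, the coordinates of the deposited table) stood at 51.0 FPKM in WT and 20.1 FPKM in iKO. It was 2.46-fold lower, with a log2 ratio of −1.30. Of the 6023 genes with a locus of their own and at least 5 FPKM in the higher library, 16 had a lower ratio than Yy1.

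Markers of satellite cells were high in both libraries. All 12 were measured, 4 with a ratio above 0 and 8 below, and their summed level was 3866 FPKM in WT and 3512 FPKM in iKO. Pax7 stood at 61.8 and 78.3 FPKM in WT and iKO, Myf5 at 126 and 150, and Sdc4, a surface proteoglycan, at 1401 and 1190. Msc, at 334 and 219 FPKM, and Vcam1, at 392 and 270, had the lowest ratios. Markers of other cells were lower: 24.5 and 20.9 FPKM for 10 endothelial genes, 10.1 and 11.6 FPKM for 11 immune genes, and 52.4 and 59.8 FPKM for 12 muscle fibre genes. The 12 markers of fibro-adipogenic progenitors, the stromal cells of muscle, summed to 1365 and 1203 FPKM, of which Gsn, an actin regulator also made by other cells, gave 849 and 760. Other members of that list were also well above the level of most genes, with Col3a1 at 162 and 134 FPKM, Dcn at 104 and 144 and Col1a1 at 68.6 and 42.9, whereas the receptor Pdgfra stood at 1.11 and 1.14 FPKM.

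The libraries also differed in transcripts that are not part of a muscle programme. All 4 measured genes of the Y chromosome had ratios below 0, the first 2 past 2-fold: Ddx3y at 62.1 and 28.3 FPKM, Eif2s3y at 27.1 and 12.6, Uty at 3.14 and 1.79 and Kdm5d at 2.21 and 0.852. Their summed level, 94.6 FPKM in WT and 43.6 FPKM in iKO, had a log2 ratio of −1.10, and the part of the sex of the animals in any other result was not tested. Summed FPKM over all symbols was 545755 in WT and 531371 in iKO. Among 1542 symbols of at most 0.3 FPKM in both libraries, 27.6% had the same value within 1% after a common factor of 1.00, so neither library stands out as the deeper one by this measure. The number of reads is unknown.

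Few genes differed by 2-fold, and the higher and lower ones were unevenly spread over levels. In all, 76 of 11229 genes (0.677%) were at least 2-fold higher in iKO and 81 (0.721%) were at least 2-fold lower, with a median ratio of −0.0027 and a standard deviation across genes of 0.39. A ratio below 0 was found for 50.4% of all genes, the share against which the counts of each list below are to be read. Small RNA genes and symbols that share a listed locus or are named as copies were set apart, because reads may be split among them. Of the 8484 remaining genes, 35 (0.413%) were higher and 58 (0.684%) were lower. Below 20 FPKM, 31 of 5604 such genes were higher and 24 lower. At 20 FPKM or more in the higher library, 4 of 2880 were higher and 34 lower, and 60.2% had a ratio below 0 against 45.7% of those under 20 FPKM, so that lists of abundant genes compare with the former share. The 4 higher ones were Lars2, Sbsn, Apod and Adh1.

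**Figure D1:**
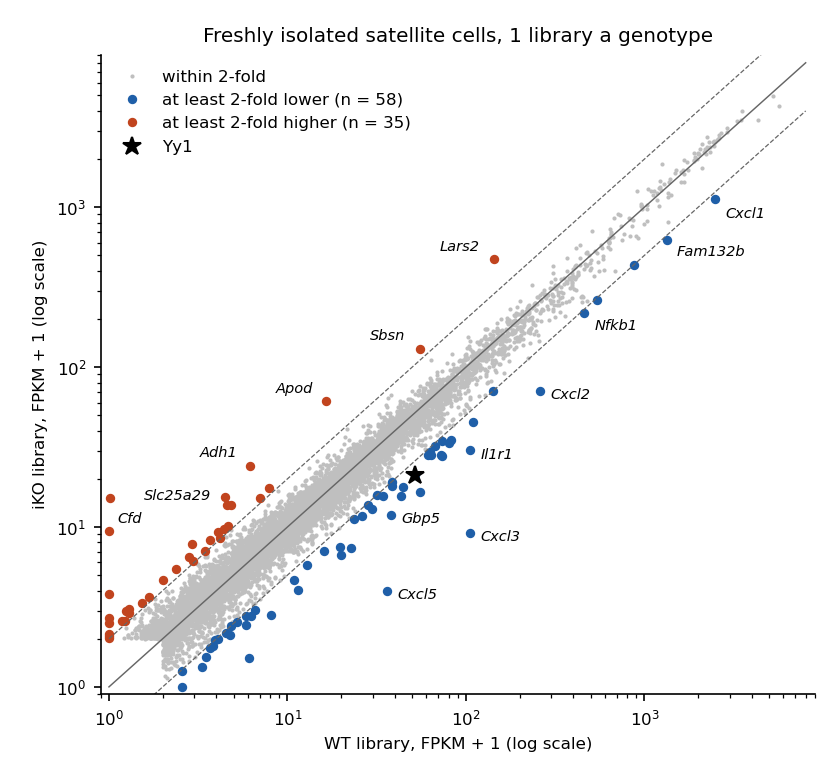
Level of the 8484 genes with a locus of their own in the WT library (horizontal axis) and the iKO library (vertical axis) of freshly isolated cells, both as FPKM + 1 on log scales, 1 point a gene; the solid line marks equal levels and the dashed lines a 2-fold difference. The 58 genes at least 2-fold lower include Cxcl3, Cxcl5, Il1r1 and Cxcl1, and few of the 35 higher genes lie above 20 FPKM.

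**Figure D2:**
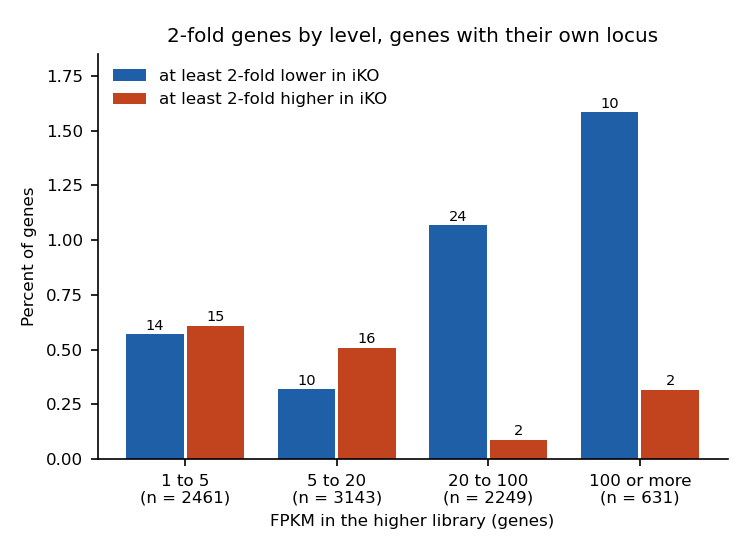
Percent of the genes with a locus of their own that were at least 2-fold lower or higher in the iKO library (vertical axis), in 4 ranges of FPKM in the higher library (horizontal axis); the number above a bar counts genes. From 20 FPKM upward 34 genes were lower and 4 higher, whereas under 20 FPKM 24 were lower and 31 higher.

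Genes near the limits show what the thresholds decide. At the 1 FPKM limit, Zfp39 (1.00 and 0.686 FPKM in WT and iKO) was just inside and Zfp329 (0.9995 and 0.953) just outside. At the 2-fold limit, Ptgs2, the inducible cyclooxygenase, was just inside on the lower side with 3.80 and 1.40 FPKM, and Wisp1 just outside with 38.2 and 18.6 FPKM. On the higher side Stfa3, at 0 in WT and 1.02 FPKM in iKO, was just inside, and Nnt, a mitochondrial transhydrogenase, just outside with 3.16 and 7.29 FPKM.

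Genes of inflammatory signalling lay mostly below 0, and 17 of the 58 lower genes with a locus of their own belong to them. Over 6 lists of chemokines, cytokines, their receptors and NF-kappaB factors, 92 of 111 measured genes had a ratio below 0, with a median of −0.30 against −0.0027 over all genes. Of these 111, 17 were at least 2-fold lower and 0 at least 2-fold higher. All 17 have a locus of their own, which makes 17.5% of the 97 such genes in these lists against 0.684% of all such genes. The lists were drawn up with earlier results of these libraries known, so the counts are a description and no independent evidence. They also depend on where the lists end. Il17c, an interleukin-17 cytokine gene outside the lists, was among the 35 higher genes with a locus of their own. Tnfrsf21, a receptor gene also outside them, was among the 58 lower ones.

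Chemokine ligands, secreted proteins that draw leukocytes to a tissue, included the 2 lowest ratios among genes with a locus of their own and at least 5 FPKM. Of 19 measured, 17 were below 0 and 6 at least 2-fold lower, with a median of −0.67, and their summed level was 3916 FPKM in WT and 1783 FPKM in iKO. A stretch of 147 kb on chromosome 5 holds the CXC genes whose products bind the neutrophil receptor CXCR2. Cxcl3 (91215127 to 91217119) stood at 104 and 8.19 FPKM and was 11.4-fold lower, and Cxcl5 (91188324 to 91190651) stood at 35.0 and 2.99 FPKM and was 9.03-fold lower. Cxcl2 (91332925 to 91334964) stood at 258 and 70.1 FPKM, 3.64-fold lower. Cxcl1 (91320271 to 91322141) stood at 2474 and 1123 FPKM, 2.2-fold lower. The levels of these 4 neighbours spanned a wide range in WT, from 35.0 to 2474 FPKM, and the more abundant Cxcl1 and Cxcl2 had smaller folds than Cxcl3 and Cxcl5. The same stretch also holds the platelet chemokines Pf4 (1.18 and 0.576 FPKM) and Ppbp (0.524 and 0.258), named for their position, which were low in both libraries.

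The monocyte chemokines lay next. Ccl2 on chromosome 11 stood at 538 and 262 FPKM, 2.05-fold lower, and its neighbour Ccl7, chosen after its values were seen, at 223 and 113 FPKM, 1.96-fold lower. Within 2-fold were Cxcl10, Cxcl12 and Ccl11, also chosen later: Cxcl10, an interferon-induced ligand, stood at 131 and 80.6 FPKM, Cxcl12, the stem cell homing ligand, at 41.5 and 33.2, and Ccl11, the eosinophil ligand, at 39.8 and 31.9. Ccl19 was at 1.55 FPKM in WT and listed at 0 in iKO. Above 0 were Cxcl13 (1.8 and 4.02 FPKM) and Ccl27a (8.45 and 12.8 FPKM), which shares its listed locus with other symbols.

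Immune cell markers were low in both libraries. Of the 11 in the table, 4 were measured, 2 above 0 and 2 below, and no marker passed 3.86 FPKM. Of the defining ones, Ptprc, the pan-leukocyte CD45, stood at 0.0695 and 0.116 FPKM, Itgam at 0.103 and 0.0770 and Adgre1 at 0.0379 and 0.0377, and Cd3e was listed at 0 in both libraries. The 4 measured were Cd68, a macrophage gene, at 3.72 and 3.86 FPKM, Cd14, a co-receptor for bacterial lipopolysaccharide, at 2.998 and 2.43, Lyz2, a lysozyme of myeloid cells, at 2.82 and 2.39, and S100a8, a neutrophil gene, listed at 0 in WT and at 1.68 in iKO. Their part in the chemokine values was not tested. In bulk RNA, fewer cells that make a transcript and less of it in each cell cannot be told apart.

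The stretches of DNA before 5 of the 30 lowest named genes are shown, picked from those that hold the same short motif. The motif is GGANNTTCC, a core of the NF-kappaB binding site (kappaB site), looked for on both strands. N stands for any base. Csf1 and Tm4sf1, also among those 30, have a match in the windows described below and are not printed. Cxcl5 and Il1r1, which are also among those 30, are not among the lower genes with a match. The 250 bases before the RefSeq start of each gene (GRCm38.p6, a later build than that of the table) are printed 5′ to 3′ with the match in capitals.
Cxcl1: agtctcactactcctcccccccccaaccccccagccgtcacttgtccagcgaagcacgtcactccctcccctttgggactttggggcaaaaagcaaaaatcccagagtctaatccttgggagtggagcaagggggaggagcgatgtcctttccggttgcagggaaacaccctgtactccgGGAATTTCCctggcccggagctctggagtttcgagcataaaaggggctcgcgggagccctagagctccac
Cxcl2: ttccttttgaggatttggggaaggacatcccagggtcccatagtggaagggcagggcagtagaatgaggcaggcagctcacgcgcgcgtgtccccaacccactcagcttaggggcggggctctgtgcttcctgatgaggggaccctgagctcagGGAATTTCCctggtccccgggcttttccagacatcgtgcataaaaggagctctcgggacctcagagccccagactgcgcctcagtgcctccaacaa
Cxcl3: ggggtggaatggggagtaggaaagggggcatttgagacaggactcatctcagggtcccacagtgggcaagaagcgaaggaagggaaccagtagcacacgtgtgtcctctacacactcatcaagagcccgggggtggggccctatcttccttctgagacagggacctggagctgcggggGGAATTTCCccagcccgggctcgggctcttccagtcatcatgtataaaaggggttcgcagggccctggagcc
Tnfaip2: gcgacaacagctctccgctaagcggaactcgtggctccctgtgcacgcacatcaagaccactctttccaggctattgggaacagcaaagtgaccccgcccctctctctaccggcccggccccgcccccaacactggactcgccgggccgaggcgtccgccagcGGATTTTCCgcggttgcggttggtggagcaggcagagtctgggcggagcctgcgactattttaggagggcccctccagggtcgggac
Gbp5: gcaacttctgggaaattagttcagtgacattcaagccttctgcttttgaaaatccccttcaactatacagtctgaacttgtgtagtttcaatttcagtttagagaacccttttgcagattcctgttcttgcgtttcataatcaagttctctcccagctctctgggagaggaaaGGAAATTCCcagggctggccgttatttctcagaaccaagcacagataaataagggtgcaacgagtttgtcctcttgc
The stretches lie on the plus strand at chr5:90890995-90891244 (Cxcl1), chr5:90903649-90903898 (Cxcl2), chr5:90785851-90786100 (Cxcl3), chr12:111442411-111442660 (Tnfaip2) and chr3:142496684-142496933 (Gbp5). In Cxcl1, Cxcl2 and Cxcl3 the match read GGAATTTCC in each and began 70, 96 and 72 bases before the start. In Tnfaip2 it read GGATTTTCC and began 87 bases before the start, and in Gbp5 it read GGAAATTCC at 77 bases. A match describes these letters and does not show that a factor binds there.

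Among the lower genes as a whole, this motif was found more often than over all measured genes. The windows searched are the 300 bases from 250 before to 50 after each RefSeq start, and a gene counts when any of its windows matches. Of 51 lower genes with a window, 11 (21.6%) held GGANNTTCC, against 470 of 8551 measured genes (5.50%) and 4.26% of all 32851 windows. The 11 were Csf1, Cxcl1, Cxcl2, Cxcl3, Gbp2, Gbp5, Il1rl2, Tfpi2, Tm4sf1, Tnfaip2 and Zfp57. The 90 measured genes of the 6 inflammatory lists that have a window held it in 21.1%, so the share among lower genes was close to that of such genes whatever their ratio. Of 50 higher genes with a window, 5 (10%) held it, among them Apod and P2ry14.

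Among the receptors that carry interleukin-1 and microbial signals, 3 were at least 2-fold lower and others had nearly equal levels. Il1r1, the signalling receptor of interleukin-1, stood at 104 and 29.2 FPKM, 3.48-fold lower. Tlr2, a receptor for bacterial lipoproteins, stood at 18.6 and 6.44 FPKM, 2.63-fold lower. Il1rl2, the receptor of interleukin-36, stood at 2.31 and 0.327 FPKM, a low level in both libraries, and came within 2-fold with 5 FPKM added in place of 1. The inhibitory kinase Irak3 was at 16.5 and 8.13 FPKM, within 2-fold. Tlr4 (14.6 and 14.1 FPKM), Il1rap, the partner chain of Il1r1 (3.35 and 3.31), and Myd88, the adaptor shared by these receptors (134 and 135), had nearly equal levels. Tlr6, a partner of Tlr2, was above 0 with 5.09 and 5.98 FPKM. Of the 18 measured genes of this list, 16 were below 0 and 3 were at least 2-fold lower, with a median of −0.28.

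Among NF-kappaB factors and their inhibitors, Nfkb1 alone passed 2-fold. This gene, which encodes the p105 precursor of the p50 subunit, stood at 456 and 217 FPKM, 2.1-fold lower. Relb, the partner of the alternative pathway, was at 172 and 120 FPKM, and the inhibitors Nfkbie and Tnip1 were at 132 and 79.6 and at 127 and 66.0. Not all feedback genes shared this direction. Tnfaip3, which encodes the deubiquitinase A20, stood at 104 and 128 FPKM, Bcl3 at 148 and 162, and Nfkbia, the main cytoplasmic inhibitor, chosen after its values were seen, at 326 and 324. In all, 16 of 21 were below 0, with a median of −0.18.

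In the tumour necrosis factor list, 5 of 22 measured genes were at least 2-fold lower and 18 were below 0, with a median of −0.56. Tnfaip2 stood at 54.5 and 15.6 FPKM, 3.35-fold lower. Csf1, the growth factor of macrophages, stood at 72.4 and 26.9 FPKM, 2.63-fold lower. Csf2 and Csf3, those of granulocytes and macrophages, were low in both libraries, at 2.49 and 0.546 FPKM and at 3.07 and 0.981 FPKM. With 5 FPKM added in place of 1, the log2 ratios of Csf2, Csf3 and Ptgs2 were −0.43, −0.43 and −0.46, within 2-fold. Vcam1, an adhesion molecule that is also a satellite cell marker, was at 392 and 270 FPKM, and within 2-fold. The 4 genes above 0 were Tnfsf9, which shares its locus (13.3 and 18.3 FPKM), Lcn2 (1.59 and 1.73), Tnfaip1 (20.7 and 21.8) and Tnfrsf10b (6.54 and 6.83).

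In the interleukin-6 family the ligand Lif was lower and the feedback inhibitor was not. Lif, leukaemia inhibitory factor, stood at 59.9 and 27.4 FPKM, 2.15-fold lower, and Il11 at 4.10 and 2.50. The kinases Jak1 and Jak2 stood at 98.8 and 68.1 FPKM and at 25.1 and 17.2 FPKM. Socs3, induced by STAT3, stood at 169 and 201 FPKM. Of 21 measured genes 16 were below 0, with a median of −0.22. Il15ra, the private chain of the interleukin-15 receptor, stood at 18.9 and 5.64 FPKM, 3.0-fold lower, and the other 9 measured receptors of its list lay within 2-fold, among them Ifnar2 (85.6 and 64.0 FPKM) and Ifngr1 (56.6 and 51.1).

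**Figure D3:**
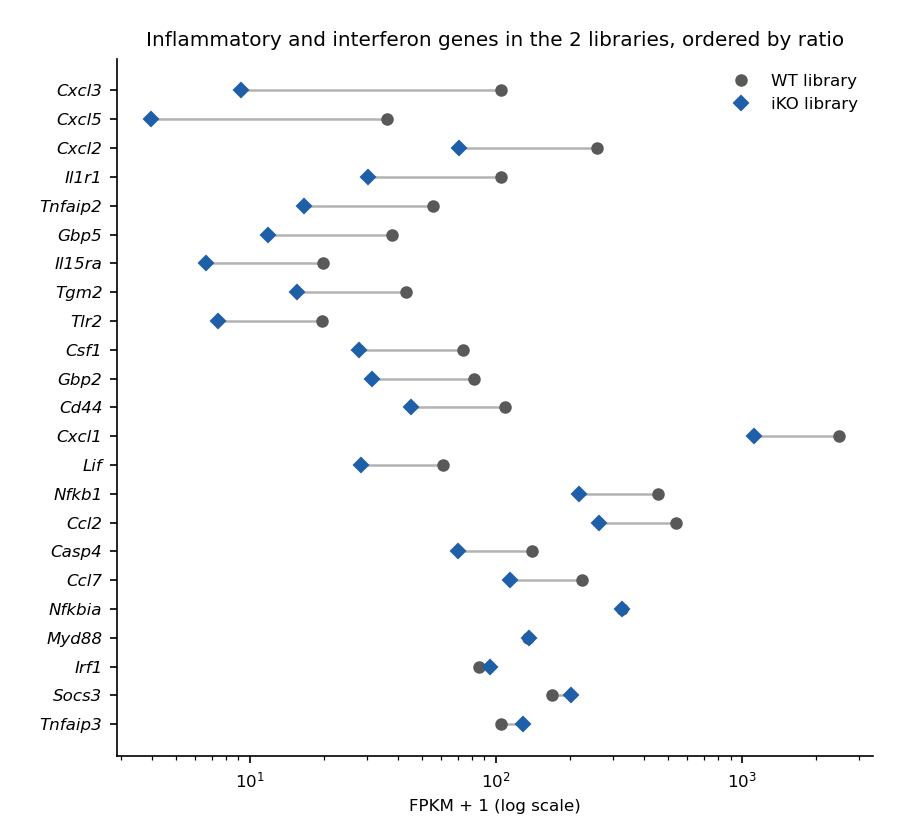
Level of 23 inflammatory and interferon genes as FPKM + 1 on a log scale (horizontal axis) in the WT library (circles) and the iKO library (diamonds), ordered by ratio; there is 1 library a genotype and hence no error bar. Cxcl3 and Cxcl5 have the longest lines, Nfkbia and Myd88 lie at nearly the same level in both libraries, and Irf1, Socs3 and Tnfaip3 are slightly higher in iKO.

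Interferon genes had medians below 0, at −0.27 for the GTPases they induce and −0.28 for a further list, and a pair of GTPases passed 2-fold. Gbp5 and Gbp2, guanylate-binding proteins that act against microbes inside cells, lie on chromosome 3 within 141 kb. Gbp5 stood at 36.9 and 10.9 FPKM, 3.18-fold lower, and Gbp2, whose listed locus also holds Mir6381 (at 0 in both libraries), at 80.3 and 30.4 FPKM, 2.59-fold lower. Their neighbour Gbp3 was at 18.4 and 8.92 FPKM, and Gbp7 at 3.03 and 2.47. Of 11 measured GTPases 9 were below 0, and Mx2 (4.11 and 4.86 FPKM) and Iigp1 (3.16 and 3.44) were above.

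Of 43 interferon-stimulated genes of a further list, 36 had a ratio below 0, with a median of −0.28, and 0 passed 2-fold in either direction. Ifit1, an RNA-binding antiviral protein, stood at 6.67 and 2.97 FPKM, Irf5 at 5.54 and 2.36, and Isg15, a ubiquitin-like protein, at 24.8 and 15.8. Irf1 (84.5 and 94.0 FPKM), Irf3 (33.0 and 38) and Bst2 (32.9 and 38.1) lay above 0. Antigen presentation genes had a median of −0.19, with 19 of 25 below 0 and 0 past 2-fold. H2-Q4, a class I molecule, was at 593 and 403 FPKM, while the immunoproteasome subunits Psmb8 (9.24 and 10.8) and Psmb10 (9.69 and 11) were above 0. Complement genes were mixed: C1qa was at 1.57 and 0.258 FPKM, Serping1 at 433 and 435, and Cfd, also an adipocyte gene, is given with those below. The motif GAAANNGAA, a core of interferon response elements, was in 11 of the 51 lower genes with a window (21.6%), against 8.55% of measured genes and 42.4% of the 66 genes of the interferon lists that have a window. Gbp2, Gbp5, Tm4sf1 and Zfp57 held both motifs.

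**Figure D4:**
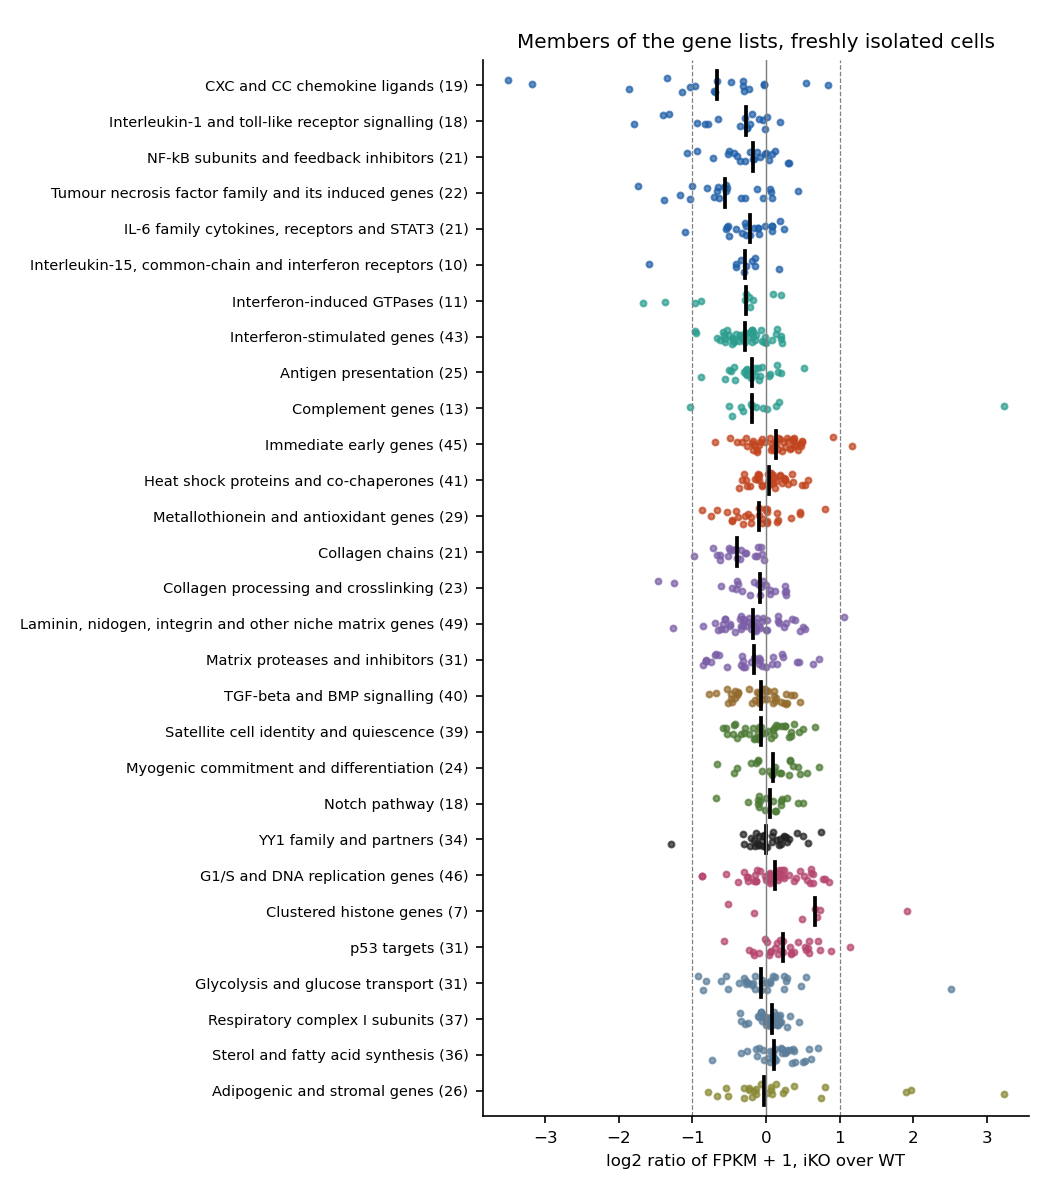
Log2 ratio of FPKM + 1, iKO over WT (horizontal axis), of each measured member (points) of 29 gene lists (rows, with the number of measured members); bars mark the list's median, dashed lines a 2-fold difference, and points are spread vertically for legibility. The chemokine list has its median at −0.67 and all 21 collagen chains lie below 0, while the p53 targets have their median at 0.23.

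Collagen chains lay below 0, within 2-fold. All 21 measured chains had a ratio below 0, with a median of −0.39 and a summed level of 1071 FPKM in WT and 851 FPKM in iKO. The fibrillar chain Col1a1 stood at 68.6 and 42.9 FPKM, and Col6a6 at 2.02 and 0.534. At the other end, Col6a1 stood at 122 and 121 FPKM and Col6a2 at 49.8 and 47.5, so the chains of collagen VI with a high level hardly differed. Under upper-quartile scaling the log2 ratio of Col6a1 was 0.014, above 0, and with 0.1 FPKM added in place of 1 that of Col6a6 was −1.74, past 2-fold. Col5a3, a chain of collagen V that is a quiescence-linked gene of satellite cells, stood at 143 and 104 FPKM. The summed markers of fibro-adipogenic progenitors, which include Col1a1 and Col3a1, had a log2 ratio of −0.18, with 8 of 11 measured below 0, and their part in the collagen values was not tested.

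Enzymes that crosslink the matrix held 2 genes past 2-fold. Tgm2, transglutaminase 2, stood at 42.1 and 14.6 FPKM, 2.77-fold lower, and Loxl2, a lysyl oxidase whose listed locus also holds a microRNA gene, at 72.3 and 29.9 FPKM, 2.37-fold lower. Crtap, Ppib and Plod2, which modify or fold collagen in the endoplasmic reticulum, were above 0, at 16.4 and 19.7, 110 and 131, and 12.5 and 15.4 FPKM. Over 23 genes of this list the median was −0.09, with 16 below 0.

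Among niche matrix genes and their receptors, 36 of 49 were below 0, with a median of −0.17. Cd44, the hyaluronan receptor, stood at 108 and 44.2 FPKM, 2.41-fold lower. Itgav, an integrin alpha chain, was at 20.6 and 11 FPKM and the proteoglycan Bgn at 251 and 159. In the other direction, Mfap2, a microfibril protein, stood at 1.96 and 5.17 FPKM, and the small proteoglycan Dcn at 104 and 144 FPKM. Matrix proteases and inhibitors had 22 of 31 below 0 and 0 past 2-fold, among them Timp1 (74.3 and 41.9 FPKM), Plat, the tissue plasminogen activator (100 and 56.1), and Reck (4.01 and 1.77).

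The immediate early and heat shock lists had medians above 0, whereas those of the inflammatory lists were below 0. Which genes were switched on by taking the cells out of the tissue was not measured. All 45 immediate early genes were measured, 29 above 0 and 16 below, with a median of 0.14. Fos stood at 913 and 1253 FPKM, Egr1 at 1882 and 2184, Cyr61 at 1042 and 1308 and Jund at 307 and 430. Ier5l, the only one past 2-fold, stood at 6.87 and 16.7 FPKM. Fosl1 (127 and 78.1 FPKM), Ier5 (360 and 255) and Gadd45b (230 and 176) were below 0. Heat shock genes had a median of 0.04 over 41 genes. Of these 41, 26 were above 0 and 15 below. Hspb1 (2227 and 2752 FPKM), Hspa1b (1664 and 1978) and the co-chaperone Dnajb1 (1250 and 1858) are named as part of the 10 largest rises in FPKM.

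Metallothioneins and heme oxygenase were among the transcripts that lost the most FPKM. Mt2 and Mt1, metal-binding proteins, stood at 5662 and 4278 FPKM and at 4314 and 3528 FPKM in WT and iKO. Hmox1, which degrades heme, was at 1352 and 804 FPKM, Slc39a14, a zinc and iron importer, at 474 and 259, and Sod2, the mitochondrial superoxide dismutase, at 49.1 and 30.7. Gstp1, a glutathione transferase, was above 0 with 63.0 and 110 FPKM. Over the 29 measured genes of this list the median was −0.09, with 18 below 0 and 0 past 2-fold.

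Satellite cell identity genes differed little and in both directions. Of 39 measured, 22 were below 0 and 17 above, 0 passed 2-fold and the median was −0.07. On the higher side were Cdkn1c, the cell cycle inhibitor p57 (14.8 and 23.9 FPKM), Hes1, a Notch effector (49.0 and 69.7), Peg3 (209 and 286) and Fgfr4 (199 and 259), beside the Pax7 values above. On the lower side were Cav1, caveolin-1 (239 and 159 FPKM), Vcam1, and Rgs5, also a pericyte gene (9.31 and 6.12). Myogenic genes had a median of 0.10 over 24 genes, with Myod1, the determination factor, at 411 and 558 FPKM, and the fibre genes Tnnc2 and Myl1 at 4.44 and 8.0 and at 2.54 and 4.19 FPKM. Muscle fibre markers summed to 52.4 and 59.8 FPKM with 8 of 9 measured above 0, and their part in these 2 fibre genes was not tested. In the Notch pathway, Jag1, a ligand, was at 20.0 and 12.1 FPKM and its transcription factor Rbpj at 92.5 and 85.6, with a median of 0.05 over 18 genes. TGF-beta and BMP genes had a median of −0.07 over 40 genes and 0 past 2-fold, with Tgfb2 (29.3 and 16.8 FPKM) and Inhbb (15.5 and 9.28) lowest and Bmp6 (29.3 and 40.8) highest.

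The partners of YY1 were not shifted as a group. Of 34 measured genes of the YY1 family, INO80, Polycomb and histone deacetylase complexes, 17 were above and 17 below 0, with a median of 0.0031, and Yy1 itself was the only one past 2-fold. Cbx7, a Polycomb reader of histone H3 methylation, stood at 15.8 and 27.2 FPKM, Hcfc1, a cofactor that joins chromatin modifiers, at 28.0 and 42.0, Ruvbl1, an INO80 ATPase, at 22.4 and 32.2, and Yaf2, which binds YY1, at 11.7 and 16.0. The acetyltransferase Crebbp was at 23.3 and 18.7 FPKM.

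Cell cycle and p53 genes had medians above 0. Of 46 genes of G1/S and DNA replication, 30 were above 0, with a median of 0.12 and 0 past 2-fold, and their median level was 4.27 FPKM in WT and 4.76 FPKM in iKO. Rfc5 and Rfc4, subunits of the clamp loader, stood at 2.56 and 5.46 and at 4.20 and 8.07 FPKM, and E2f1 at 1.11 and 2.60. Ccnd1, cyclin D1, went the other way at 33.7 and 18.0 FPKM, as did Mcm5 at 4.34 and 1.93. Of 31 p53 targets 25 were above 0, with a median of 0.23 and a median level of 19.2 FPKM in WT and 22.4 FPKM in iKO. Ckap2, a mitotic spindle protein, stood at 3.41 and 8.75 FPKM, 2.21-fold higher, Psrc1 at 2.17 and 4.83, Dcxr at 4.81 and 8.68 and Phlda3, an inhibitor of Akt, at 34.7 and 57. Fas, a death receptor that is also an NF-kappaB target, was below 0 with 291 and 196 FPKM. Clustered histone genes, whose main transcripts lack a poly(A) tail, had 7 measured of 61 listed, 5 of them above 0.

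Metabolic lists had medians on both sides of 0. Respiratory complex I had a median of 0.08 over 37 subunits, from Ndufb2 (82.6 and 64.5 FPKM) to Ndufc2 (43.3 and 59.6). Sterol and fatty acid synthesis genes had 28 of 36 above 0 and a median of 0.11, with Dhcr7 at 1.54 and 3.16 FPKM, Pmvk at 12.6 and 19.3 and the elongase Elovl6 the other way at 8.61 and 4.77. In glycolysis, with a median of −0.07 over 31 genes, Hif1a, the hypoxia factor, stood at 83.2 and 46.6 FPKM, Eno2 at 5.57 and 2.62 and the lactate exporter Slc16a3 at 29.9 and 19.3.

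Of the 58 lower genes with a locus of their own, 36 are in none of the 29 gene lists; of these, Ddx3y and Eif2s3y are in the list of Y chromosome markers. Wisp2, a matricellular protein, stood at 10.4 and 3.05 FPKM, Rnd1, a GTPase that loosens the actin skeleton, at 79.8 and 32.3, Tnfrsf21, death receptor 6, at 28.6 and 11.9, and Clmp, an adhesion molecule, at 25.2 and 10.7. Intracellular proteins were Adarb1, an RNA-editing adenosine deaminase (71.7 and 27.2 FPKM, 2.58-fold lower), Mpp7, a scaffold of cell junctions (43.4 and 16.8), Map3k6, a stress kinase (62.4 and 27.0), and Upp1, uridine phosphorylase (33.3 and 14.7). Panx1, Plbd1 and Glycam1, among the 10 lowest, stood at 21.8 and 6.42, 7.08 and 1.81, and 5.08 and 0.521 FPKM. By FPKM lost, the leading gene outside the lists was Fam132b, the hormone erythroferrone, at 1328 and 626 FPKM (2.12-fold lower), followed by Gal, the neuropeptide galanin, at 873 and 434 FPKM (2.01-fold lower). Odc1, the first enzyme of polyamine synthesis, was at 680 and 401 FPKM and Arl4d at 923 and 645, within 2-fold.

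Among the 35 higher genes with a locus of their own, 7 are in one of the 29 gene lists and 31 are under 20 FPKM. S100a8, given above, is in the list of immune cell markers. Acyp1, an acylphosphatase, stood at 3.59 and 12.8 FPKM, 3.0-fold higher, and Sbsn, a secreted protein of stratified epithelia, at 54.2 and 129, 2.36-fold higher. Tmeff2, a membrane protein, was at 1.91 and 6.77 FPKM, Serpini1, neuroserpin, at 3.07 and 8.30, Npff, a neuropeptide precursor, at 2.70 and 7.33, and Fgfr1op, a centrosomal protein, at 6.01 and 14.2. Siva1, a proapoptotic protein, was within 2-fold at 20.5 and 39.9 FPKM.

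The gene next to Yy1 was higher. Slc25a29, a mitochondrial carrier of basic amino acids, begins 9.25 kb after the listed end of Yy1 (110064088 to 110074086 on chromosome 12). It stood at 3.86 FPKM in WT and 12.8 FPKM in iKO, 2.84-fold higher. The next genes along the chromosome, named for their position, were within 2-fold: Slc25a47 at 34.5 kb (3.42 and 4.47 FPKM), Wars at 43.4 kb (8.33 and 10.01) and Wdr25 at 77.6 kb (1.03 and 1.54). Begain, at 216 kb, was below 0 (5.28 and 3.98 FPKM). On the other side Evl, Eml1 and Degs2 share a listed locus that ended 91.0 kb away. Evl stood at 6.21 and 8.38 FPKM, Degs2 at 1.35 and 1.73, and Eml1, slightly below 0, at 5.87 and 5.66. Cyp46a1, 431 kb away, stood at 1.08 and 2.99 FPKM. In cultured cells Slc25a29 was higher in the iKO library too, at 1.99 and 12.3 FPKM.

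Some of the higher genes are those of fat, stroma or muscle fibres. Cfd, the adipocyte protease adipsin, had a value of 8.43 FPKM in iKO against 0 in WT, Adh1, an alcohol dehydrogenase, stood at 5.18 and 23.1 FPKM, and Apod, a lipocalin, at 15.4 and 60.3. The 8 adipocyte markers summed to 26.3 FPKM in WT and 35.9 FPKM in iKO. Of these, 5 were listed at 0 in WT and 1, Lep, in iKO. Fabp4, also made by endothelial cells, gave most of that sum with 25.6 and 24.4 FPKM, while Adipoq was at 0.223 and 0.331 and Retn, listed at 0 in WT, at 0.877. The remaining stromal genes of the list went both ways, with Mgp at 35.7 and 63.3 FPKM, Dpt at 146 and 92.1 and Igfbp5 at 185 and 129, and a median of −0.03 over 26. Cox8b, the heart and muscle form of a cytochrome oxidase subunit, stood at 3.46 and 14.3 FPKM, and Cox7a1, another such form, chosen after its values were seen, at 1.36 and 4.48. The part of fat or fibre RNA in these values was not tested.

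Small RNA genes, short transcripts that FPKM and a poly(A) library measure poorly, are treated apart. Of 25 measured, 11 were at least 2-fold higher and 4 lower. Several were listed at 0 in 1 library and high in the other. Mir1668 was at 1613 FPKM in WT and listed at 0 in iKO, and Snora21 at 247 and 0. Snora64 was listed at 0 in WT and at 445 FPKM in iKO, and Snora28 at 0 and 145. Longer ones were higher in iKO with a value on both sides. Rn45s, the ribosomal RNA precursor, stood at 379 and 1289 FPKM, and Rpph1, the RNA of ribonuclease P, at 5.30 and 21.3. Lars2, the mitochondrial leucyl-tRNA synthetase, stood at 142 and 472 FPKM, and its log2 ratio of 1.73 was close to the 1.76 of Rn45s.

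In 6 of 7 pairs of near-identical copies the members lay on opposite sides, and 0 of the 7 sums differed by 2-fold. Each of these 6 pairs holds a gene named for an extreme ratio, so the opposite sides follow in part from the choice and are no independent result. Eif3j1 went from 0.161 to 28.4 FPKM and Eif3j2 from 64.5 to 28.4, and their sum was 64.6 FPKM in WT and 56.8 FPKM in iKO. Amd2 and Amd1, S-adenosylmethionine decarboxylases, summed to 31.6 and 29.6 FPKM although Amd2 alone stood at 0.715 and 15.7. Rps27 and Rps27rt, a ribosomal protein and its retrogene, summed to 3665 and 3243 FPKM, although Rps27 stood at 23 and 411. Eno1b and Eno1 summed to 103 and 102 FPKM. Rnaset2a, which has the highest ratio of the genes with a locus of their own (0.0104 and 14.3 FPKM), has a copy, Rnaset2b, at 31.4 and 15.4, and the sum was 31.5 and 29.7 FPKM. The log2 ratios of these 5 sums lay between −0.18 and −0.016. The remaining pairs were haemoglobin genes, with larger ratios of their sums: 0.29 for Hbb-bs and Hbb-b1, and 0.41 for Hba-a1 and Hba-a2, which were both above 0. P2ry14, a receptor of UDP-sugars at 2.43 and 26.6 FPKM, and Angptl7, at 2.60 and 9.29 FPKM inside the listed locus of Mtor, share a locus with unlike genes. On the lower side of this class were Gm7367 (15 and 0.0044 FPKM), Ptx3, a secreted pattern recognition protein listed within Veph1 (58.8 and 23.3 FPKM), and Syt12 (5.02 and 1.31).

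Binding of YY1 was measured only in cultured cells, as 1 list of 2031 peaks from 1 library and its input. A gene was counted as near a peak when a summit lay within 2 kb of either end of its listed locus. This held for 693 of 11229 measured genes (6.17%), for 8 of the 76 higher genes (10.5%, exact 95% Clopper-Pearson interval 4.66 to 19.7) and for 1 of the 81 lower genes (1.23%, interval 0.0313 to 6.69). The interval of the higher genes includes the share over all genes, as does that of the lower genes, and intervals cover counting error only. Of the 58 lower genes with a locus of their own 0 were near a peak, with an interval of 0 to 6.16% that includes the 5.93% of all such genes. None of the 19 chemokine genes, 18 interleukin-1 and toll-like receptor genes or 22 genes of the tumour necrosis factor list was near a peak, and of the NF-kappaB list only Nfkbib was.

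The higher genes near a peak were largely copies, low genes or ribosomal RNA. They were 2310010J17Rik, Akt1s1, BC051226, Eif3j1, Lars2, Rn45s, Rps27 and Tmem17, and Eif3j2 was the lower one, sharing its peak with Eif3j1. Akt1s1, an inhibitor of the growth kinase complex mTORC1 whose listed locus also holds Mir707, was chosen after its values were seen and stood at 17.8 and 47.0 FPKM, 2.55-fold higher. A summit lay 35 bases from an end of its locus, with a fold of 7.16 and −log10 q of 6.30 in the authors' deposited table. Tmem17 was at 0.295 and 2.05 FPKM with a summit 389 bases away and a deposited fold of 7.26, and BC051226 at 0.180 and 1.59 FPKM with a summit 206 bases away. The YY1 motif AANATGGCG was in 4 of the 50 higher genes with a window (8%) and in 3 of the 51 lower genes (5.88%), against 6.46% of measured genes and 2.38% of all windows. BC051226, Lars2, Rps27 and Tmem17, all near a peak, were the 4. Of the metabolic genes, 9 of the 37 subunits of complex I were near a peak (24.3%), although their ratios in fresh cells lay close to 0.

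The cultured pair is a separate pair of libraries, with Yy1 at 55.2 and 2.03 FPKM. Of the 58 lower genes with a locus of their own, 44 reached 1 FPKM there, of which 36 were below 0, 8 of them at least 2-fold. Over all 7802 such genes 50.1% were below 0 and 7.68% at least 2-fold lower. The 8 were Yy1, Alpl, Ankrd49, Clmp, Hmgb3, Il1r1, P2ry2 and Spata24, which is 18.2% of the 44. This share includes Yy1, the targeted gene of both pairs and hence no independent case. Il1r1 stood at 10.3 and 3.31 FPKM in cultured cells, Clmp at 12.7 and 2.59, Hmgb3, a chromatin protein, at 35.6 and 14.0 and Spata24 at 7.92 and 2.72. Of the 35 higher genes 19 reached 1 FPKM, of which 17 were above 0 and 8 (42.1%) at least 2-fold higher, against 8.13% of all such genes. These 8 were Acyp1 (6.35 and 26.1 FPKM), Slc25a29, Sbsn (1.91 and 12.4), Npff (2.89 and 11), Fgfr1op (10.7 and 23), Tctex1d2 (11.6 and 37.1), BC051226 and Nrn1l. Slc25a29 lies next to the targeted gene of both pairs and may be no independent case either. Akt1s1 stood at 62.7 and 196 FPKM. Which genes count as higher or lower was set by the fresh values alone. Akt1s1 and part of the other names were chosen after their values were seen, and the comparison with earlier results of these data known.

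The chemokine genes were mostly above 0 in culture. They were low in both cultured libraries, in a table that may have been normalized separately. Cxcl1 stood at 6.86 FPKM in cultured WT and 10.8 FPKM in cultured iKO cells, Cxcl3 at 1.73 and 1.74 and Cxcl2 at 0.584 and 0.753. Of the 12 chemokine ligands measured in both pairs 3 were below 0 in culture, with a median of 0.22, against −0.69 for the same 12 in fresh cells. Of 15 collagen chains 13 were below 0 and 8 at least 2-fold lower, with a median of −1.05, against −0.39 for the same 15 in fresh cells. The p53 targets had medians of 0.23 in fresh and 0.51 in cultured cells over 31 genes, of which 6 were below 0 in each pair. In culture 8 of the 31 were at least 2-fold higher and 1, Sesn2, at least 2-fold lower. Over all genes measured in both pairs, 8.76% were at least 2-fold higher and 8.01% lower in culture. Complex I had a median of 0.08 in fresh and 1.03 in cultured cells over the same 37 genes. Across the 7802 genes with a locus of their own measured in both pairs, Pearson's r of the ratios was 0.20 and Spearman's rho 0.18, a description across genes that are not independent.

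**Figure D5:**
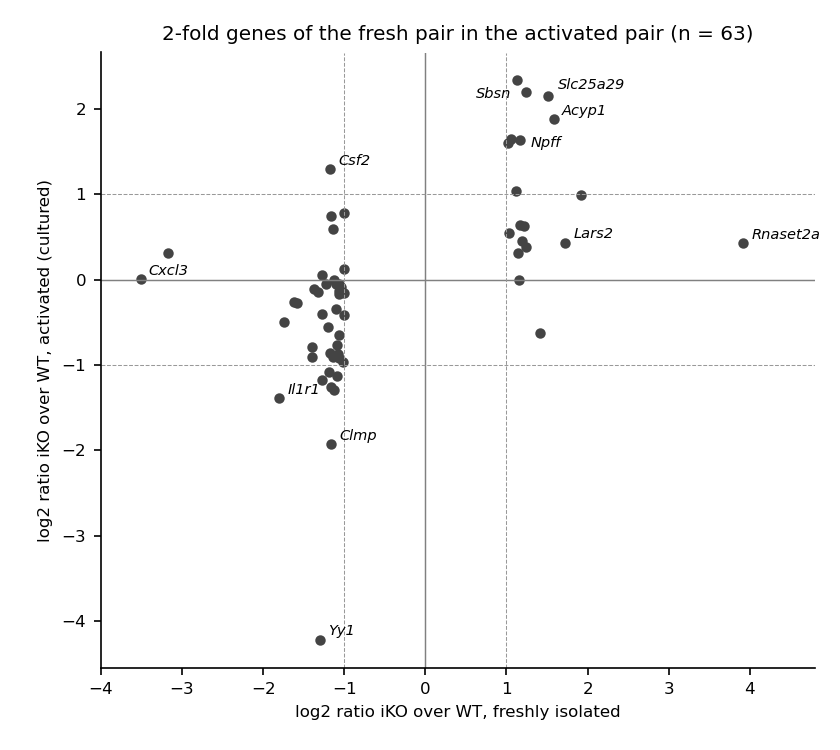
Log2 ratio of FPKM + 1, iKO over WT, in freshly isolated cells (horizontal axis) and in cultured cells (vertical axis) for the 63 genes with a locus of their own that differed by at least 2-fold in fresh cells and reached 1 FPKM in culture; dashed lines mark 2-fold. Slc25a29, Acyp1, Sbsn and Npff are higher in both pairs, Il1r1, Clmp and Yy1 lower in both, Cxcl3 lies near 0 in culture, and Csf2 is lower in the fresh and higher in the cultured pair.

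Higher and lower genes also differed in level and in locus length. Across the 8484 genes with a locus of their own, the ratio had a Pearson correlation of −0.05 with the log10 of locus length and of −0.14 with the log2 mean level, given as descriptions across genes. The higher genes had a median locus of 6.95 kb and the lower ones of 14.0 kb, against 22.4 kb over all of them. Their median levels in the higher library were 6.10 and 29.7 FPKM, against 11.2 FPKM over all of them, and the part of level and length in the ratios was not tested.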

How the data were processed

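RNA-seq and YY1 immunoprecipitation values were used as deposited, with no reads. Per the submitters' processing notes the tools were Cufflinks 2.2.1, TopHat2 and MACS2 2.1.0, with mm9 as the build; no roles are stated there. Expression is in FPKM, computed by the authors per the file headers, in 1 table for the fresh pair and 1 for the cultured pair. No source used here gives the annotation, the strand setting or how libraries were scaled. For each YY1 peak the authors deposited a score, a fold (ratio over background), −log10 p and −log10 q values and a summit offset. The fold, −log10 q and summit used here are the authors' own.

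The log2 ratio of FPKM + 1 was computed for genes with at least 1 FPKM in either library, and a 2-fold ratio was the rule of size. The added 1 understates ratios of low genes. With 1 library a side no test was run. Listed starts fit a count from 0 (end minus start equals the RefSeq length for 8464 of 22921 matched symbols), and 1 was added.

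Genes were classed as small RNA, as uncertain (a listed locus overlapping another by at least 50% of the shorter, or a symbol of a pseudogene, related sequence or clone) or as having a locus of their own. Named genes are the 30 highest and 30 lowest ratios of the last class at 5 FPKM or more, its 10 largest rises and falls in FPKM, and from each list the 4 highest, the 4 lowest and every 2-fold member. They also include 8 highest and 4 lowest small RNA genes and 6 highest and 6 lowest uncertain genes. Names that make up a count of shared peaks, motifs or cultured-cell calls fall partly outside that rule and were chosen after their values were seen. The 29 gene lists, the 11 marker lists, the classes and the comparisons were chosen with earlier results of these data known. Lists are described by counts and medians beside those of all genes. Promoter windows are from RefSeq (GRCm38.p6; 32851 windows, 27025 symbols, 8551 of the 11229 measured genes matched by symbol). Alternatives were other added values, filters, scalings and gene classes, and other peak windows. Ratio and distance code was tested on simulated data. Python 3.11.15, numpy, pandas, scipy and matplotlib were used.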

Additional observations from a re-analysis of the deposited data

Results flagged for a closer look

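Csf2, the growth factor of granulocytes and macrophages, was lower in iKO among fresh cells and higher in iKO among cultured cells, each by at least 2-fold. It stood at 2.49 FPKM in WT and 0.546 FPKM in iKO when fresh and at 0.387 and 2.39 FPKM in culture, and the fresh log2 ratio minus the cultured one was −2.46. No other gene with a locus of its own had opposite directions past 2-fold in both pairs. There is 1 library a genotype in each state, so the difference was not tested. With 5 FPKM added in place of 1 its fresh log2 ratio was −0.43, within 2-fold, so the fresh difference depends on the added value.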

How the results depend on the processing

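The count of genes at least 2-fold higher was 76 and of those at least 2-fold lower 81. With 0.1 FPKM added in place of 1 they became 194 and 217, with 5 added 26 and 35. A filter at 5 FPKM left 43 higher genes and 60 lower ones. Without small RNA genes and uncertain copies 35 were higher and 58 lower. After the copy pairs were also left out, an alternative chosen after seeing the data, 34 were higher and 58 lower. With no filter (76 and 81), upper-quartile scaling (80 and 71) and median scaling (76 and 80) the counts moved by less than 1.5 times. Among alternatives the lower genes outnumbered the higher ones except under upper-quartile scaling, which shifted all ratios by 0.04 on the log2 scale. The log2 ratio of Yy1 ran from −1.34 to −1.15. With 5 FPKM added 35 named genes came within 2-fold, and upper-quartile scaling brought Ccl2, Gal (−0.97) and Ptgs2 (−0.98) within it, as did median scaling for Ptgs2. Among genes with a locus of their own and 20 FPKM or more, 24 to 39 were lower and 4 higher with either added value or scaling, and 12 to 19 of the 97 genes with their own locus in the 6 inflammatory lists were lower and at most 1 higher, counts chosen after seeing the data. The median of the adipogenic and stromal list turned to 0.055 with no filter, 0.0095 under upper-quartile scaling and 0.065 without small RNA genes and uncertain copies, and that of YY1 partners to −0.021 with no filter. With no filter the added low genes bring clustered histones and immune markers to a median of 0. The share of higher genes near a YY1 peak ran from 8.57% to 14.5% and that of lower genes from 0% without small RNA genes and uncertain copies to 3.70% with a 5 kb window, when the share over all genes ran from 5.50% to 9.85%. Leaving out a library was not possible with 1 a side. No paired analysis was possible because there is 1 library a side, although both columns of the fresh pair carry the number 2. Depth is unknown, so no floor was set for low FPKM.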

Other observations

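Erythroid genes, whose RNA comes from red blood cells, were present in both libraries. Of 10 markers, 8 were in the table and summed to 418 FPKM in WT and 532 FPKM in iKO, and of the 6 measured 5 were above 0. Hbb-bs stood at 85.5 and 175 FPKM and Hbb-b1, listed at the same locus, at 85.5 and 35.4, with a sum of 171 and 210. Hba-a1 and Hba-a2 summed to 212 and 282 FPKM.

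Markers of tendon cells summed to 132 FPKM in WT and 163 FPKM in iKO, with 4 of 7 above 0, mainly Fmod, a proteoglycan (52.8 and 69.7 FPKM), and Thbs4, a thrombospondin (62.2 and 75.1). Schwann cell markers summed to 125 and 106 FPKM, of which Pmp22 gave 108 and 88.7. Pericyte and smooth muscle markers summed to 862 and 790 FPKM, of which Des, also a satellite cell marker, gave 615 and 576.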
